A study of Mus musculus with 4 samples.

Results

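The claudin genes *Cldn3*, *Cldn4*, *Cldn5*, *Cldn6*, *Cldn7*, *Cldn10* and *Cldn12*, with the adhesion gene *Epcam*, are a group of 8 genes. They were found by gene symbol among the 31055 genes counted by single-cell RNA sequencing of mouse embryos, and their levels were followed across cell classes and both *Grhl3* genotypes. Cells came from the caudal part of embryos at embryonic day 8.5, harvested from crosses of *Grhl3*+/- mice. The WT pool held cells of 5 embryos and the *Grhl3*-null (*Grhl3*-/-) pool held cells of 3 embryos. Each pool was run in 2 droplet reactions, which gave 2 libraries per genotype. Every comparison of genotypes is therefore a comparison of 2 pools, and its p-values hold no spread between embryos. *Grhl3* encodes a Grainyhead-like transcription factor of surface epithelia.

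Claudins are membrane proteins with a pair of extracellular loops that meet those of the neighbouring cell. Together they form the strands of the tight junction, which seals the space between epithelial or endothelial cells and sets which ions pass. EPCAM is a homophilic adhesion protein of epithelial cells that binds claudin-7 and keeps it from degradation. In the closing neural tube, the surface ectoderm and the border of the neural plate are the tissues whose junctions meet and fuse, while the neuroepithelium loses its occludin-based tight junctions as it forms.

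*Cldn3* and *Cldn4*, which encode barrier-forming claudins and the receptors of a clostridial enterotoxin, lie close together on chromosome 5. In GRCm38 coordinates *Cldn3* spans chr5:134986214-134987472 on the plus strand and *Cldn4* spans chr5:134945119-134946934 on the minus strand, 39279 bp apart with 0 protein-coding genes between them. Each has a single annotated exon, and *Cldn3* overlaps the antisense gene *Wbscr25*, whose reads could not be told from its own if the counting ignored strand, a setting not given in the sources used here. *Cldn5*, the claudin of endothelial barriers, is another gene of 1 exon, at chr16:18776847-18778262. *Cldn6*, a claudin of embryonic epithelia, spans chr17:23679249-23682446 and ends 137 bp from its neighbour *Cldn9*. *Cldn7*, the claudin partner of EPCAM, spans chr11:69964779-69967885. *Cldn10*, whose isoforms form ion pores, spans 87582 bp at chr14:118787908-118875489. *Cldn12*, a claudin without the usual PDZ-binding tail, lies at chr5:5489537-5514958 on the minus strand, and *Epcam* lies at chr17:87635979-87651129.

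The promoters are shown because the 5 genes that proved highest in the surface ectoderm and gut share a motif there. The choice of genes had not used sequence, but the windows shown were picked after levels and matches were seen. Promoter windows of 300 bases, from 250 before to 50 after each RefSeq start site, were taken from RefSeq (GRCm38.p6) for 8 of the 8 genes and searched on both strands for 3 motifs. These were the Grainyhead-like motif AACCNGTT, the AP-2 motif GCCNNNGGC and the E-box CACCTG, a sequence bound by Snail and ZEB repressors. Capitals mark matches on either strand, so that CAGGTG is the E-box and AACAGGTT the Grainyhead-like motif read on the other strand. The windows are *Cldn3* at chr5:134985964-134986263 (+), *Cldn4* at chr5:134946885-134947184 (-), *Cldn6* at chr17:23679115-23679414 (+), *Cldn7* at chr11:69965171-69965470 (+, the second of its 2 windows), *Epcam* at chr17:87635729-87636028 (+) and *Cldn5* at chr16:18776597-18776896 (+), each written 5′ to 3′ on the strand of its gene.
Cldn3: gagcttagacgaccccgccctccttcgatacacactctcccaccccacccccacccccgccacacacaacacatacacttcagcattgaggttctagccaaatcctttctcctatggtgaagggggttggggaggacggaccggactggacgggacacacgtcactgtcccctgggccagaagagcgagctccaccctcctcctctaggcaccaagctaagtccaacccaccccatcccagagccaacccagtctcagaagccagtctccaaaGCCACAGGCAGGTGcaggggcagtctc
Cldn4: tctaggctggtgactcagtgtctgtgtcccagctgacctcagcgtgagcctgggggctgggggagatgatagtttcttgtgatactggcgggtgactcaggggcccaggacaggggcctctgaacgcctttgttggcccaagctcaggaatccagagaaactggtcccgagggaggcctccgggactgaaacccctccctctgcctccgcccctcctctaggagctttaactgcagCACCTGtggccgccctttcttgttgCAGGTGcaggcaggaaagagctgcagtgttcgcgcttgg
Cldn6: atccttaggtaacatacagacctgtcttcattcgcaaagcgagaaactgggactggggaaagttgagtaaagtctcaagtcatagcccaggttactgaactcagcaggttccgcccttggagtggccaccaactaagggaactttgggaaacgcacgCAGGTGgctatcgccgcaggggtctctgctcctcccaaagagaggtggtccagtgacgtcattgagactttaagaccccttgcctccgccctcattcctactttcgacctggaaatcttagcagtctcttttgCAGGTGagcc
Cldn7: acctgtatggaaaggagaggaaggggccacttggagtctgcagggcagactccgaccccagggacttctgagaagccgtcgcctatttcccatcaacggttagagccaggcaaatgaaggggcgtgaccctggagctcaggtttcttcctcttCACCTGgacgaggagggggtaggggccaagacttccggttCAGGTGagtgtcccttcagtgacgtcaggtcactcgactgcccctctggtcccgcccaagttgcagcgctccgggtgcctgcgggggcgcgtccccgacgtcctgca
Epcam: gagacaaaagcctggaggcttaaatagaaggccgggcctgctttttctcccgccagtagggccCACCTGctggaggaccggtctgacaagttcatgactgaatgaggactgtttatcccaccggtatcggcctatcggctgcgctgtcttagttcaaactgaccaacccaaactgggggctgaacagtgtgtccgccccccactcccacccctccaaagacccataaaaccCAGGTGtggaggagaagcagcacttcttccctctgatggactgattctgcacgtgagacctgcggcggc
Cldn5: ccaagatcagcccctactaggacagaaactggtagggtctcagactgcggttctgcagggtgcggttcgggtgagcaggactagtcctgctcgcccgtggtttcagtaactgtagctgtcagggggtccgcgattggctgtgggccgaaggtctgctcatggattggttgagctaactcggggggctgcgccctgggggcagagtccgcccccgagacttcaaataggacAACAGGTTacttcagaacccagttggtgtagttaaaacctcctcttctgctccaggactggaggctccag

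The E-box was found in the promoters of *Cldn3*, *Cldn4*, *Cldn6*, *Cldn7* and *Epcam*, which is 5 of the 8 genes, and in 22.6% of 27025 genes with a promoter window. It occurred 1 time in *Cldn3*, 31 bases after the start site, and 2 times in each of the other 4. The first *Cldn7* window held 0 of the 3 motifs, as did the windows of *Cldn10*. The AP-2 motif was found in *Cldn3*, where its last base is the first base of the E-box, and in *Cldn12*, and in 18.5% of all genes. The Grainyhead-like motif was found in *Cldn5* alone among the 8 genes, 20 bases before the start site, and in 2.35% of all genes. Such matches describe the letters of these windows only.

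The deposited tables held 24239 cells, of which 20198 passed the filters (4781 to 5459 per library, with medians of 33391 to 38070 UMIs per cell). A UMI, a unique molecular identifier, marks 1 captured transcript, and values are given as CPM, counts per 1000000 UMIs of a class, a level that does not scale with transcript length in this 3′ assay. *Grhl3* was counted 878 and 803 times in WT and 12 and 14 times in *Grhl3*-null, so the targeted gene followed the labels. Cells called male made up 23.1% and 23.6% of the WT and 47.0% and 48.1% of the null libraries, so the pools also differed in sex. Pairs of libraries shared 7 to 16 cell barcodes. Clustering without the 8 genes gave 16 clusters, 14 of which were named from marker genes (16411 cells), always in the sense of "-like" and from lists without the 8 genes. The unnamed clusters, of 3270 and 517 cells, are left out of the class levels, orders and tests below. The first of them, led by *Prrx1* and *Hand2*, was the largest cluster of all. The gut-like class was led by *Nepn* and *Spink1* and also by *Ttr*, *Rbp4*, *Apoa1* and *Afp*, genes of visceral endoderm, and the somitic mesoderm-like class by *Dll1* and *Tbx6*, which are also genes of presomitic mesoderm. The class resembling surface ectoderm and neural plate border, hereafter surface ectoderm, held 244 and 217 WT cells and 257 and 243 null cells. Its 13 marker genes summed to 4760 to 5310 CPM in the 4 libraries, against 597 to 687 CPM in the endothelium-like class.

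In WT embryos, 5 of the 8 genes had their highest levels in the surface ectoderm and gut classes, and *Cldn5* in the endothelium. *Cldn10* was low in every named class, and *Cldn12* was spread over nearly all named classes. *Cldn3* stood at 43.3 ± 1.63 CPM (SD, n = 2 libraries) in the surface ectoderm and 17.3 ± 0.292 CPM in the gut, and no other class passed 3.36 CPM. The surface ectoderm held 62.5% of the *Cldn3* UMIs of WT cells. *Cldn4* stood at 44.1 ± 1.92 CPM in the surface ectoderm and 37.7 ± 2.74 CPM in the gut, with 3.38 CPM in the notochord as the next level. For both genes the libraries of neighbouring classes in this order did not overlap down to the gut. These levels compare clusters of the same cells, so they are a description and were not tested.

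*Cldn6*, *Cldn7* and *Epcam* were highest in the gut and second in the surface ectoderm. *Epcam*, the most abundant of the group, stood at 593 ± 25.1 CPM in the gut and 434 ± 20.4 CPM in the surface ectoderm. *Cldn7* stood at 254 ± 0.343 CPM and 171 ± 13.5 CPM in these classes. The primordial germ cell class, with only 5 to 26 cells per library, followed for both genes, at 244 ± 93.9 CPM of *Epcam* and 118 ± 3.66 CPM of *Cldn7*. *Cldn6* stood at 321 ± 1.40 CPM in the gut and 274 ± 7.72 CPM in the surface ectoderm, and the third level was that of the notochord, at 123 ± 6.22 CPM. *Cldn6* was also detected in the neuromesodermal progenitors, at 18.6 CPM. The germ cells carried *Cldn7* and *Epcam* with little *Cldn4* (0.672 CPM), and the notochord carried *Cldn6* with little *Cldn7* (4.87 CPM).

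*Cldn5* was at 282 ± 11.4 CPM in the WT endothelium, which held 94.6% of its UMIs, and at 18.7 CPM in the germ cells. *Cldn10* did not exceed 4.23 ± 0.919 CPM, reached in the class mesenchyme 2, where its libraries overlapped those of the intermediate mesoderm (3.98 ± 0.357 CPM). *Cldn12* was highest in the neuroepithelium (21.9 ± 0.0435 CPM) and the neuromesodermal progenitors (20.8 ± 0.173 CPM), and these levels did not overlap. From there to the endothelium at 8.71 CPM the *Cldn12* levels of most neighbouring classes overlapped, and only the erythroid class, at 2.73 CPM, lay well apart. Across the 14 WT classes, the profile of *Cldn3* was most like those of *Kdf1*, *Cgn* and *Rab25* (Pearson r 0.961, 0.957 and 0.954 on log values), and that of *Cldn4* most like *Prss8*, *Grhl2* and *Trim29* (0.983, 0.967 and 0.964). *Cldn6* ranked closest to *Ripk4*, *Cldn7* to *Ap1m2*, *Epcam* to *Cdcp1* and *Cldn5* to *Pecam1*, at r of 0.957 to 0.989. These correlations are across classes that share their libraries.

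**Figure D1:**
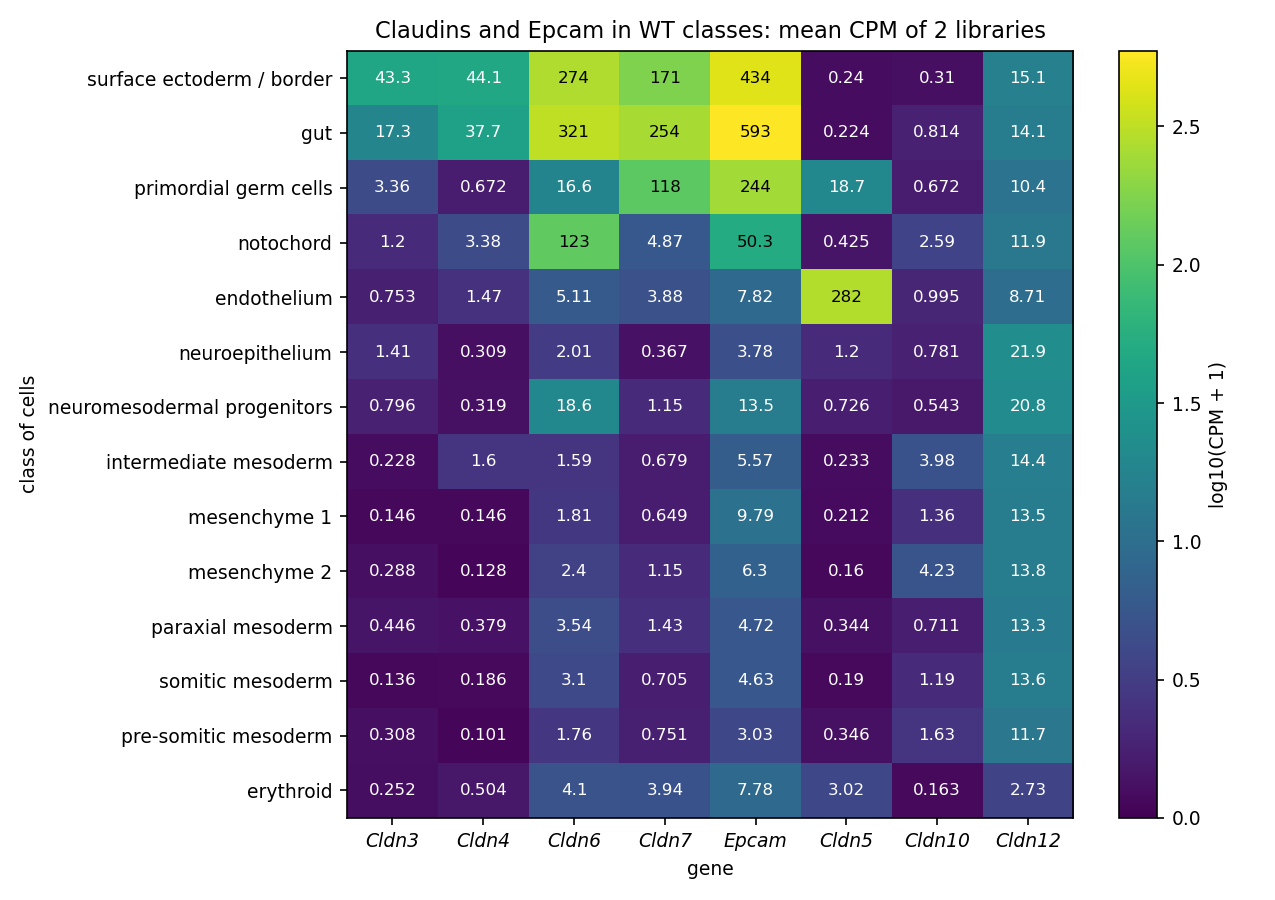
Mean CPM of the 8 genes (columns) in the 14 named WT classes (rows), written in each cell and coloured by log10(CPM + 1). *Cldn3*, *Cldn4*, *Cldn6*, *Cldn7* and *Epcam* share high values in the surface ectoderm and gut rows, and *Cldn5* has its single high value, 282 CPM, in the endothelium row.

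In the surface ectoderm, *Cldn3* and *Cldn4* fell 2.95-fold and 2.61-fold in *Grhl3*-null cells, *Cldn7* and *Epcam* fell by less, and *Cldn6* and *Cldn12* did not pass the test. UMIs were summed per class and library, all genes of the class were tested by the quasi-likelihood method of edgeR, and a gene was called where its Benjamini-Hochberg adjusted p was under 0.05. *Cldn3* measured 44.5 and 42.2 CPM in the WT libraries and 13.9 and 16.5 CPM in the null libraries. Both null libraries lay far below both WT libraries, a log2 fold change of -1.56 ± 0.096 (SE, edgeR adjusted p = 1.47e-09). *Cldn4* measured 45.4 and 42.7 CPM in WT and 16.5 and 18.4 CPM in null, again far apart, as for its chromosomal neighbour. Its log2 fold change was -1.38 ± 0.091 (edgeR adjusted p = 3.75e-09).

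*Cldn7* measured 162 and 181 CPM in the WT and 119 and 128 CPM in the null libraries, again without overlap. The log2 fold change was -0.51 ± 0.059 (edgeR adjusted p = 7.35e-06). *Epcam*, which encodes the partner of claudin-7, measured 449 and 420 CPM in WT and 355 and 356 CPM in null, a log2 fold change of -0.33 ± 0.047 (edgeR adjusted p = 9.14e-05). *Cldn6* measured 268 and 279 CPM in WT against 258 and 269 CPM in null, and the libraries overlapped. Its log2 fold change was -0.09 ± 0.048 (edgeR adjusted p = 0.217). *Cldn12* measured 15.3 and 14.8 CPM in WT and 18.1 and 15.3 CPM in null (0.12 ± 0.115, edgeR adjusted p = 0.574). *Cldn5* and *Cldn10* had 0 to 6 UMIs per library in this class and did not pass the filter on low counts. In bulk sums of this kind, fewer expressing cells and less RNA per cell cannot be told apart.

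The genes were chosen with earlier results of these data known, so the shares called, here and below, are a description. Of the 6 genes tested in the surface ectoderm, 4 were called, against 14.0% of all 12521 genes of the class. All 4 were lower in null, against 8.17% of all genes called lower, and 2 of them, *Cldn3* and *Cldn4*, moved by 1 or more on the log2 scale, against 1.31% of all genes. The pools differed in sex, and the difference was also present within each sex. Among male cells the log2 fold changes were -1.44 for *Cldn3*, -0.96 for *Cldn4*, -0.71 for *Cldn7* and -0.22 for *Epcam*. Among female cells they were -1.77, -1.81, -0.35 and -0.42 for the same genes, all called. *Cldn6* was called lower among male cells as well (-0.27). WT replicate 1 carried 271 CPM of haemoglobin genes in this class, against 26.7 to 33.2 CPM in the other libraries. Without that library the log2 fold change was -1.53 for *Cldn3* and -1.34 for *Cldn4*.

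**Figure D2:**
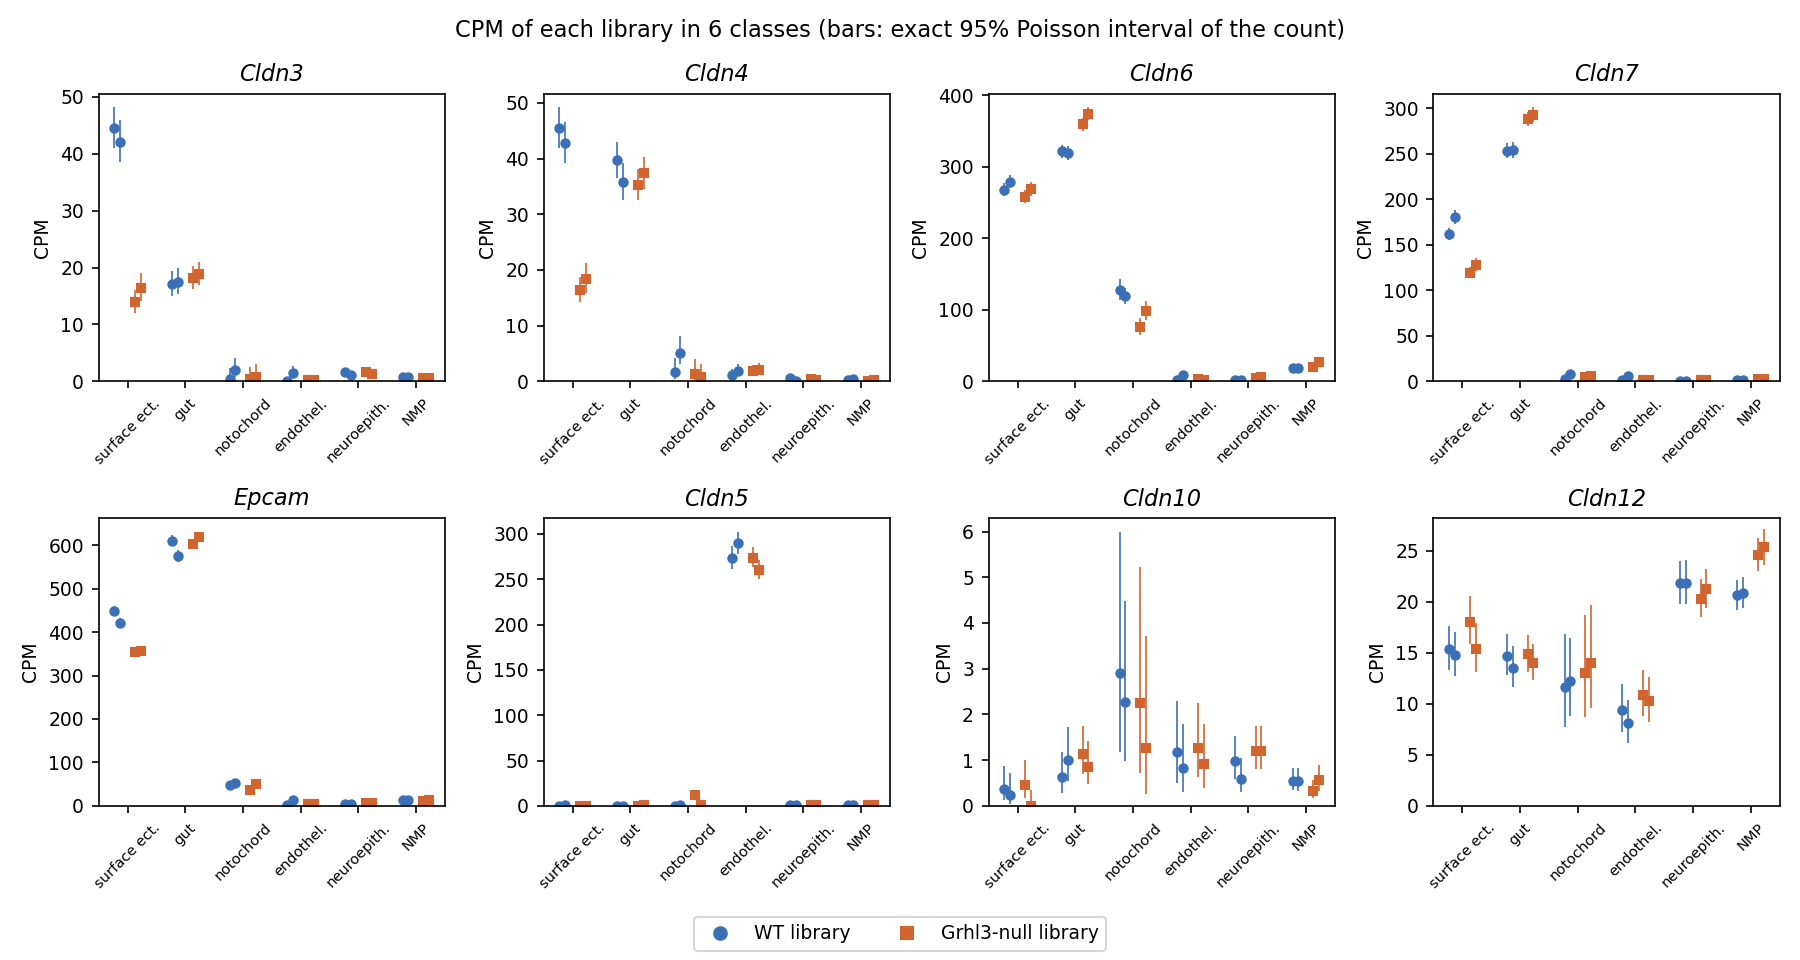
CPM of the 8 genes (1 panel each, with its own linear axis from 0) in 6 classes, with a point for each library and bars for the exact 95% Poisson interval of the count. The surface ectoderm points of *Cldn3* and *Cldn4* separate by genotype (42.2 to 45.4 CPM in WT, 13.9 to 18.4 CPM in null), while their gut points lie together.

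The share of surface ectoderm cells with a UMI moved with the level. *Cldn3* was detected in 58.6% and 60.4% of WT cells and 36.2% and 35.8% of null cells, and *Cldn4* in 69.7% and 69.1% against 45.5% and 44.9%. The exact 95% binomial intervals, which cover counting error only, ran from 52.1% to 66.9% over the WT and from 29.8% to 42.4% over the null libraries for *Cldn3*. After thinning each cell to 7500 UMIs the *Cldn3* shares were 22.1% and 20.7% in WT and 8.17% and 10.7% in null, and those of *Cldn4* were 29.1% and 27.2% against 10.1% and 13.2%. In the endothelium, which should lack both genes, the unthinned shares were 0% to 1.28% for *Cldn3* and 5.23% to 7.61% for *Cldn4*, and 0% to 0.518% and 0.654% to 1.92% after thinning. For the lowest, 0 of 153 cells, a floor of 3 cells is a share of 1.96%, which is not the exact binomial bound. Median depths were 35873 to 42634 UMIs per cell in the surface ectoderm and 35654.5 to 39582 in the endothelium. *Epcam* was detected in 98.0% to 100% of surface ectoderm cells and *Cldn6* in 95.9% to 98.8%, in both genotypes. All of *Cldn3*, *Cldn4*, *Cldn6*, *Cldn7* and *Epcam* were detected together in 48.8% and 46.1% of WT cells and in 17.9% and 19.8% of null cells. Detecting exactly 3 of the 5 was the state of 16.4% and 14.7% of WT cells and 35.0% and 38.3% of null cells.

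Within the WT surface ectoderm, *Cldn3* and *Cldn4* were higher in cells in which *Grhl3* itself was detected. *Cldn3* measured 61.8 and 51.7 CPM in cells with a *Grhl3* UMI and 15.0 and 21.8 CPM in cells without, in the 2 WT libraries. *Cldn4* measured 55.4 and 48.9 CPM with and 28.5 and 29.7 CPM without. *Cldn6*, which was not called between genotypes in this class, was also higher, at 297 and 291 CPM with and 218 and 252 CPM without. For comparison, null cells without a *Grhl3* UMI measured 13.6 and 16.1 CPM of *Cldn3* and 16.5 and 18.3 CPM of *Cldn4*. For *Cldn3* the WT cells without a *Grhl3* UMI thus overlapped the null cells, and for *Cldn4* they lay above them. For *Epcam* the libraries of both kinds of cell overlapped, with 453 and 400 CPM with and 441 and 463 CPM without a *Grhl3* UMI, and *Cldn7* measured 176 and 190 CPM with and 137 and 161 CPM without. The cells with a *Grhl3* UMI were also deeper (medians of 62845.5 and 64412 UMIs against 34229.5 and 30031), and the part of depth in these values was not tested.

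Across WT surface ectoderm cells, the correlation with *Grhl3* on log counts was 0.63 and 0.46 for *Cldn3* and 0.45 and 0.34 for *Cldn4* in the 2 libraries. After thinning it was 0.33 and 0.23 for *Cldn3* and 0.24 and 0.09 for *Cldn4*. *Cldn6* had 0.35 and 0.19, *Cldn7* 0.07 and 0.14, and *Epcam* 0.05 and -0.01 before thinning. *Cldn3* and *Cldn4* correlated with each other at 0.57 and 0.44 in WT and at 0.21 and 0.09 in null. Both genes also stood at lower levels in null, and the part of level in these correlations was not tested. These values describe cells of 1 library each, which share a pool and differ in depth. *Tfap2c*, an AP-2 factor of the neural plate border, was itself lower in the null surface ectoderm (log2 fold change -0.91 ± 0.100, edgeR adjusted p = 4.08e-06). Over all filtered cells *Tfap2c* stood at 3.33 and 2.84 CPM in WT and 3.04 and 3.37 CPM in null, and the libraries overlapped. Among cells with a *Tfap2c* UMI, *Cldn3* (-1.40), *Cldn4* (-1.46), *Cldn7* (-0.58) and *Epcam* (-0.37) were called lower by edgeR. Among cells without, *Cldn3* (-1.04) and *Cldn4* (-0.81) remained called, while *Cldn7* (-0.27, adjusted p = 0.0801) and *Epcam* (-0.27, adjusted p = 0.157) were not called by edgeR. A *Tfap2c* UMI was found in 151 and 134 WT cells and 105 and 117 null cells. Those cells were deeper, with WT medians of 62419 and 58298.5 UMIs against 33304 and 29105 without. Null medians were 52895 and 39822 against 36823.5 and 33538, and the part of depth in these calls was not tested.

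**Figure D3:**
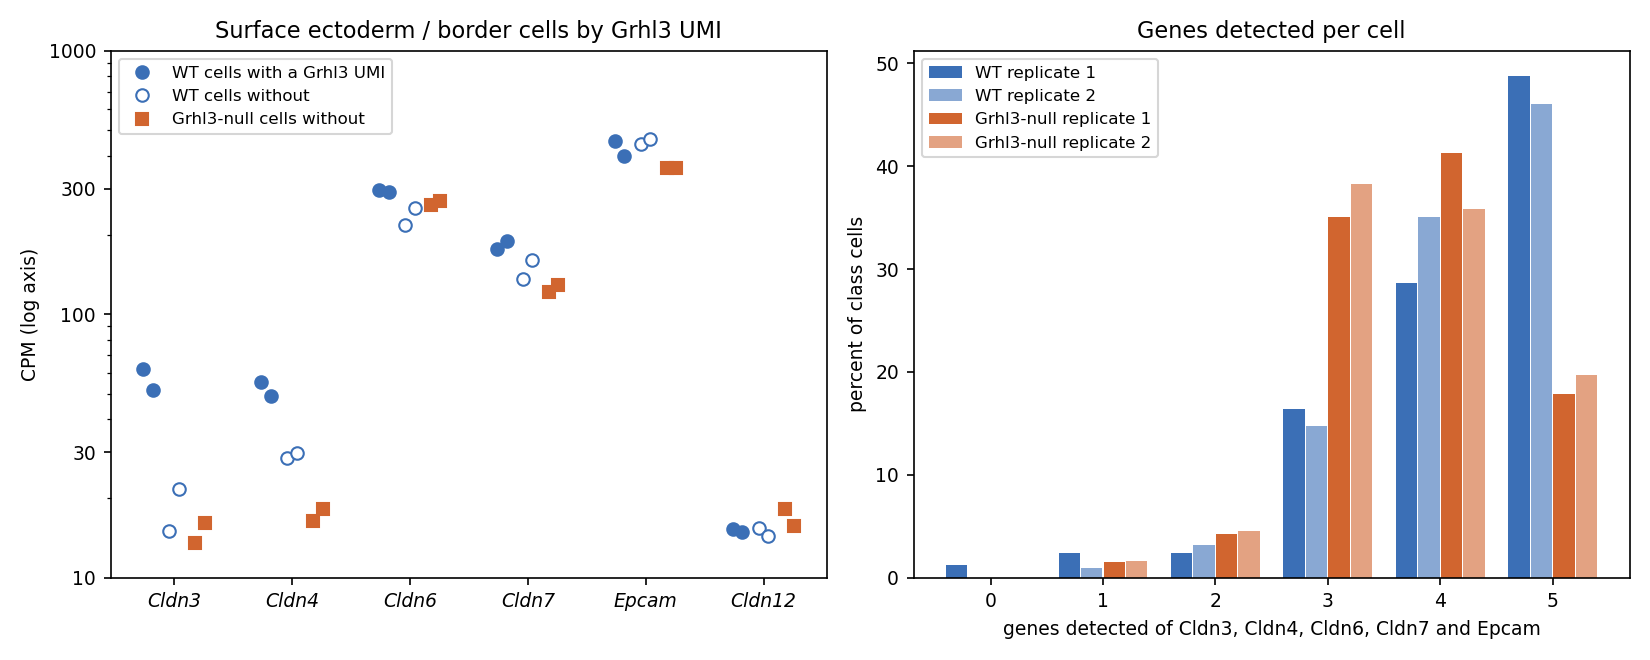
Left, CPM on a log axis of 6 genes in surface ectoderm cells, with a point for each library: WT cells with a *Grhl3* UMI (filled circles), WT cells without (open circles) and null cells without (squares). Right, the percentage of surface ectoderm cells of each library in which 0 to 5 of *Cldn3*, *Cldn4*, *Cldn6*, *Cldn7* and *Epcam* were detected. On the left the circles of *Cldn3*, *Cldn4*, *Cldn6* and *Cldn7* part by *Grhl3* UMI, and those of *Epcam* do not. On the right WT peaks at 5 genes and null at 3 or 4.

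In the gut, *Cldn3*, *Cldn4* and *Epcam* did not pass the test, and *Cldn6* and *Cldn7* were slightly higher in null. *Cldn3* measured 17.1 and 17.6 CPM in WT and 18.2 and 18.9 CPM in null (log2 fold change 0.06 ± 0.090, edgeR adjusted p = 0.692). *Cldn4* measured 39.7 and 35.8 CPM in WT and 35.3 and 37.4 CPM in null, with overlap (-0.09 ± 0.067, edgeR adjusted p = 0.358). *Epcam* measured 611 and 575 CPM in WT and 602 and 620 CPM in null (0.01 ± 0.041, edgeR adjusted p = 0.944). *Cldn6* measured 322 and 320 CPM in WT and 359 and 374 CPM in null, a log2 fold change of 0.16 ± 0.043 (edgeR adjusted p = 0.0106). *Cldn7* measured 253 and 254 CPM in WT and 288 and 293 CPM in null, also 0.16 ± 0.044 (edgeR adjusted p = 0.0111). Of 7 genes tested in the gut, 2 were called, both higher, against 20.4% of all genes called and 9.99% called higher, so the share is near the background. Without *Grhl3*-null replicate 2 neither was called (0.13 for *Cldn6* and 0.15 for *Cldn7*), and without WT replicate 1 *Cldn7* was not called (0.15). *Cldn7* was -0.16 among male cells. The gut marker list summed to 4435 and 4900 CPM in WT and 6849 and 6856 CPM in null, and 8 visceral endoderm genes, of which 7 were called higher, to 626 and 669 CPM against 1395 and 1403 CPM, and their part in these 2 results was not tested.

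The genotype effect itself differed between the surface ectoderm and the gut. A model over both classes with the library as a block tested the surface ectoderm effect minus the gut effect. This difference of log2 fold changes was -1.62 ± 0.131 for *Cldn3* (edgeR adjusted p = 3.53e-09) and -1.29 ± 0.107 for *Cldn4* (edgeR adjusted p = 5.05e-09). It was -0.67 ± 0.058 for *Cldn7*, -0.33 ± 0.039 for *Epcam* and -0.25 ± 0.046 for *Cldn6*, all called. Thus 5 of 7 genes were called, against 12.6% of all genes, all of them lower in the surface ectoderm, against 6.44% of all genes. This share too is a description, since the genes were chosen with earlier results of these data known. *Cldn10* and *Cldn12* were not called.

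In the neuroepithelium, 4 of 7 genes tested were called, 3 higher and 1 lower in null, against 23.5% of all genes called, 11% called higher and 12.5% called lower. All 4 stood at low levels. *Cldn6* measured 2.05 and 1.98 CPM in WT and 4.61 and 5.91 CPM in null (log2 fold change 1.35 ± 0.192, edgeR adjusted p = 3.62e-05). *Cldn7* measured 0.359 and 0.374 CPM in WT and 1.51 and 1.17 CPM in null (1.82 ± 0.381, edgeR adjusted p = 0.00163). *Epcam* measured 4.31 and 3.26 CPM in WT and 7.67 and 6.17 CPM in null (0.84 ± 0.166, edgeR adjusted p = 0.00103). For each of the 3 the null libraries lay above the WT libraries. The null levels lay within or under the range over libraries in the endothelium, where *Cldn6* spanned 1.46 to 8.76, *Cldn7* 1.26 to 6.16 and *Epcam* 2.63 to 13.0 CPM. The upper ends came from WT replicate 2 alone, and without it the ranges were 1.46 to 3.43, 1.26 to 1.71 and 2.63 to 4.01 CPM, so that the null levels of *Cldn6* and *Epcam* lay above them. The part of free RNA in these levels was not tested. *Cldn5* measured 1.34 and 1.07 CPM in WT and 0.474 and 0.388 CPM in null (-1.50 ± 0.366, edgeR adjusted p = 0.00546), and without WT replicate 1 it was not called (-1.32, adjusted p = 0.0612). In the same class 5 of 8 tested epithelial regulators were called higher and 2 lower (*Grhl3* and *Klf4*), and 5 of 5 neural crest genes and 5 of 8 visceral endoderm genes were called higher in null. The visceral endoderm list summed to 14.3 and 13.5 CPM in WT and 20.8 and 24.0 CPM in null, and the neural crest list to 15.8 and 22.5 CPM against 54.8 and 67.4 CPM, and their part in these results was not tested. Among male cells 0 of the genes were called by edgeR, at log2 fold changes of 0.19 for *Cldn6* and 1.29 for *Epcam* (adjusted p = 0.0934).

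The surface ectoderm effect minus the neuroepithelium effect was -2.33 ± 0.365 for *Cldn7*, -1.59 ± 0.287 for *Cldn3*, -1.45 ± 0.175 for *Cldn6* and -1.17 ± 0.141 for *Epcam*, all called by edgeR. These are 4 of 8 genes, all lower in the surface ectoderm, against 13.9% of all genes called and 6.95% called lower. *Cldn3*, at 1.41 CPM in the WT neuroepithelium, was not called between genotypes in that class alone. *Cldn4*, with few UMIs in the neuroepithelium, gave -1.08 ± 0.638 (edgeR adjusted p = 0.301), and -3.45, which was called, without WT replicate 1.

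**Figure D4:**
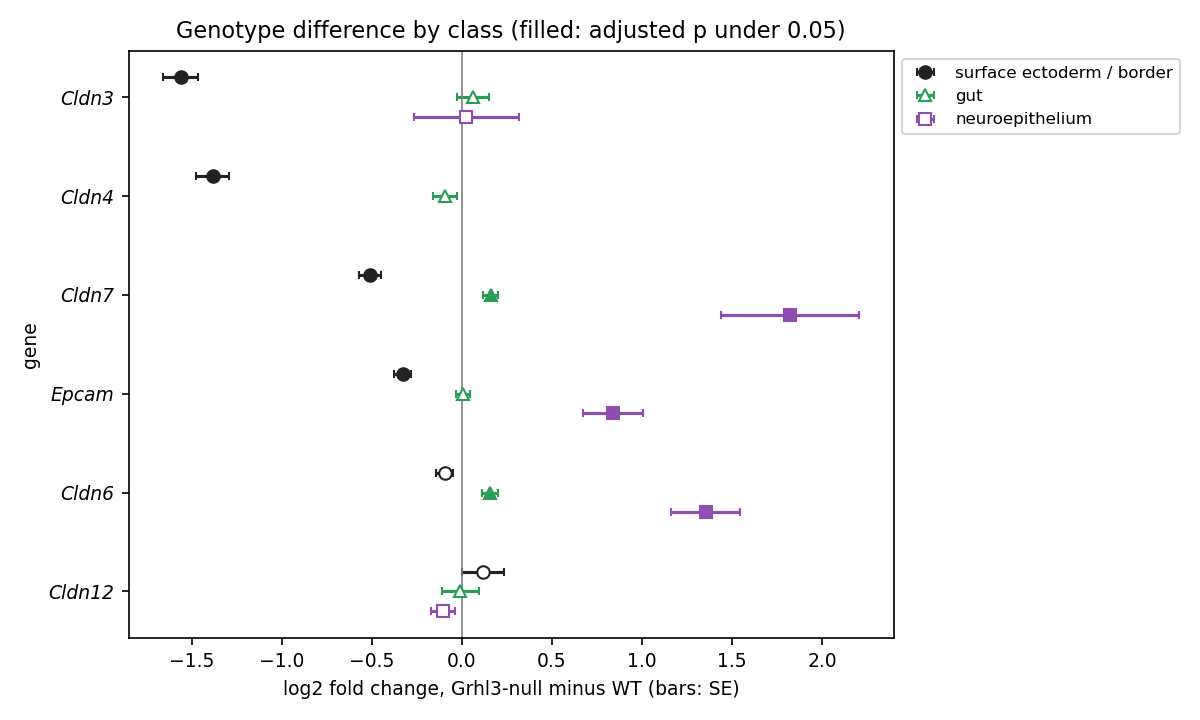
Log2 fold change, null minus WT (horizontal axis, bars for the SE), of 6 genes in 3 classes, with filled markers where the edgeR adjusted p is under 0.05. The surface ectoderm points of *Cldn3* (-1.56) and *Cldn4* (-1.38) lie far left of their gut points (0.06 and -0.09), and the neuroepithelium points of *Cldn7*, *Cldn6* and *Epcam* lie on the right.

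In the endothelium, *Cldn5* measured 274 and 290 CPM in WT and 274 and 260 CPM in null, with overlap (log2 fold change -0.09 ± 0.055, edgeR adjusted p = 0.570), and it was detected in 87.0% to 92.8% of cells (65.4% to 73.1% after thinning). Among female cells alone *Cldn5* was called lower (-0.56, edgeR adjusted p = 0.00306). In the paraxial mesoderm, which should lack *Cldn5*, it was detected in 0.763% to 2.86% of cells, at median depths of 37482 to 51614.5 UMIs, and stood at 0.228 to 0.695 CPM. Of 6 genes tested in the endothelium, 0 were called by edgeR or DESeq2, against 0.565% of all genes, and 1, *Cldn7*, had an unadjusted p under 0.05. WT replicate 2 stood apart there, with 13.0 CPM of *Epcam*, 8.76 CPM of *Cldn6* and 6.16 CPM of *Cldn7*, against 1.26 to 4.01 CPM of these genes in the other libraries. Without WT replicate 1, these 3 genes were called lower in null (-1.75, -1.62 and -2.05). In the notochord *Cldn6* measured 128 and 119 CPM in WT and 75.8 and 98.3 CPM in null, a log2 fold change of -0.50 ± 0.114 (edgeR adjusted p = 0.00896). It was the only call among 4 genes tested there, against 3.76% of all genes called and 1.91% called lower, and it was not called without *Grhl3*-null replicate 1 (-0.35).

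In the neuromesodermal progenitors 3 of 7 genes were called, all higher in null, against 18.8% of all genes called and 8.40% called higher. Of 8 visceral endoderm genes, 5 were called higher and 1 lower there, with sums of 24.0 and 25.4 CPM in WT and 27.5 and 30.1 CPM in null, and their part was not tested. *Cldn12* measured 20.6 and 20.9 CPM in WT and 24.6 and 25.4 CPM in null (0.26 ± 0.046, edgeR adjusted p = 0.00256). *Cldn7* measured 1.19 and 1.11 CPM against 2.17 and 2.44 CPM (0.99 ± 0.187). *Cldn6* measured 18.6 and 18.6 CPM against 20.7 and 27.7 CPM (0.36 ± 0.097, edgeR adjusted p = 0.0229), and was not called without *Grhl3*-null replicate 2 (0.15), WT replicate 1 (0.36) or WT replicate 2 (0.35). *Epcam* was not called (-0.26 ± 0.095, edgeR adjusted p = 0.0834), but was called lower without *Grhl3*-null replicate 2 (-0.44) and among female cells (-0.87), and called higher among male cells (0.56) and at a clustering resolution of 0.8 (0.16), so its direction depended on the cells taken.

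In mesenchyme 2 *Cldn12* was called higher (0.33 ± 0.100) and *Cldn10* lower among 5 genes tested, against 20.3% of all genes called, 10.3% called higher and 9.96% called lower. *Cldn12* measured 13.7 and 13.9 CPM in WT and 16.1 and 18.6 CPM in null (edgeR adjusted p = 0.0307), and *Cldn10* 3.58 and 4.88 CPM in WT and 2.77 and 1.85 CPM in null (-0.89 ± 0.254, edgeR adjusted p = 0.0226). Neither call was firm against leaving out a library. *Cldn10* was not called without WT replicate 2 (-0.65) or *Grhl3*-null replicate 2 (-0.60), and *Cldn12* was not called without WT replicate 1 (0.32), WT replicate 2 (0.34) or *Grhl3*-null replicate 2 (0.22). *Epcam*, not called with all libraries (-0.65), was called without WT replicate 2 (-1.03).

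In the paraxial mesoderm *Cldn3*, *Cldn7* and *Epcam* were called lower at low levels (log2 fold changes -2.86, -1.0 and -0.70), 3 of 7 genes tested, against 22.3% of all genes called and 12.9% called lower. There *Cldn3* rested on few UMIs, 9 and 12 for WT, 1 and 3 for null, or 0.0279 to 0.547 CPM, within the 0 to 1.51 CPM of the endothelium. *Epcam* measured 5.98 and 3.47 CPM in WT and 3.66 and 2.33 CPM in null, and the libraries overlapped. Without WT replicate 1 neither *Cldn7* (-0.59) nor *Epcam* (-0.23) was called, and *Epcam* was not called without *Grhl3*-null replicate 2 (-0.42). Neither was called after the likeliest doublets were removed (-0.33 for *Cldn7* and 0.0112 for *Epcam*) or among female cells (-0.069 and 0.16).

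In the somitic mesoderm 2 of 5 genes tested were called, both higher, against 11.9% of all genes called and 5.96% called higher. *Cldn6* measured 2.81 and 3.40 CPM in WT and 5.02 and 4.83 CPM in null (0.65 ± 0.162, edgeR adjusted p = 0.0146), and it was not called without WT replicate 1 (0.53). *Cldn12* measured 13.7 and 13.4 CPM in WT and 15.6 and 17.5 CPM in null (0.27 ± 0.082, edgeR adjusted p = 0.0381), and it was not called without WT replicate 1 (0.29), WT replicate 2 (0.25) or *Grhl3*-null replicate 2 (0.19). *Epcam* was called lower without *Grhl3*-null replicate 2 (-0.67) and not with all libraries (-0.42). In the intermediate mesoderm 0 of 3 genes were called by edgeR or DESeq2, against 3.46% of all genes. An unadjusted p under 0.05 was found for 3, *Cldn10*, *Cldn12* and *Epcam*. The nearest was *Cldn12*, at 13.6 and 15.2 CPM in WT and 18.7 and 23.6 CPM in null (0.58 ± 0.174, edgeR adjusted p = 0.0715), and it was called without *Grhl3*-null replicate 1 (0.75). In mesenchyme 1 and the erythroid class 0 genes of 3 and 1 tested were called by edgeR or DESeq2, against 2.47% and 0.443% of all genes, and 0 had an unadjusted p under 0.05. Over the 12 classes tested, 61 of 96 pairs of gene and class passed the filter, and 21 were called by edgeR, 11 higher and 10 lower. DESeq2 called 7 of these 21, namely the 4 in the surface ectoderm, *Cldn6* in the gut and *Cldn6* and *Epcam* in the neuroepithelium. It did not call 10, and gave no adjusted p for 4, *Cldn7* in the neuromesodermal progenitors, *Cldn3* in the paraxial mesoderm and *Cldn6* and *Cldn12* in the somitic mesoderm. The pre-somitic class (503 and 493 WT cells, 4 and 1 null cells) and the germ cells were too small to be tested.

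The files hold 26 other claudin genes. Of these, 10 had 0 UMIs in the filtered cells and 6 reached 5 CPM in any named class. *Cldn9*, the neighbour of *Cldn6*, reached 41.5 CPM in the surface ectoderm, *Cldn11* 37.0 CPM in the intermediate mesoderm, *Cldn13* 24.9 CPM in the erythroid class, *Cldn8* 8.51 CPM in the gut of null embryos and *Cldn1* 5.81 CPM in the paraxial mesoderm of null embryos. *Cldn34c1* had 4074 UMIs over all filtered cells and stood at 5.19 CPM in WT mesenchyme 2. Its highest value, 6.64 CPM in the WT germ cells, rested on 5 UMIs. In the surface ectoderm *Cldn8* measured 4.44 and 4.05 CPM in WT and 1.61 and 1.69 CPM in null, and was called lower (-1.40 ± 0.258, edgeR adjusted p = 0.00097). In the gut *Cldn2*, a pore-forming claudin, was called higher (1.63 ± 0.258).

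The partners of the claudins in the tight junction did not move one way in the surface ectoderm. Of 21 genes tested, 4 were called higher (*Cgnl1*, *Jam3*, *Prkci*, *Tjp1*) and 4 lower, among them *Ildr1*, *Jam2* and *Tjp3*. The median log2 fold change was -0.05, against 0.00 over all genes. Of all genes of the class, 14.0% were called and 8.17% called lower. *Tjp1*, which encodes the scaffold ZO-1, measured 101 and 110 CPM in WT and 128 and 126 CPM in null (0.23 ± 0.055). *Tjp3*, which encodes the related scaffold ZO-3, gave -0.38. Occludin (*Ocln*) was not called (-0.36 ± 0.130, edgeR adjusted p = 0.0697).

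The next 2 lists stand beside 14.0% of all genes of the surface ectoderm called and 8.17% called lower. Of 9 genes tested that act with EPCAM, 6 were called lower and 0 higher in null, with a median of -0.34. The tetraspanin *Cd9* measured 79.5 and 80.8 CPM in WT and 46.1 and 52.0 CPM in null (-0.75 ± 0.063, edgeR adjusted p = 1.13e-07). Among the others called were the channel-activating protease *Prss8* (-0.60), E-cadherin (*Cdh1*, -0.51) and the protease inhibitors *Spint2* (-0.34) and *Spint1* (-0.23). Of 13 epithelial regulators tested, transcription factors and the splicing regulators *Esrp1* and *Esrp2*, 7 were called lower and 0 higher, with a median of -0.39. These were *Grhl3* itself (33.2 and 26.4 CPM in WT, 0.306 and 0.376 CPM in null), *Esrp2* (-1.95), *Ovol1* (-1.64), *Tfap2c*, *Elf3*, *Klf5* and *Esrp1*. *Grhl2*, the paralogue of *Grhl3*, measured 35.7 and 39.2 CPM in WT and 36.0 and 36.7 CPM in null (-0.08 ± 0.079, edgeR adjusted p = 0.562). Of 5 repressors of epithelial genes (*Snai1*, *Snai2*, *Twist1*, *Zeb1*, *Zeb2*), 0 were called by edgeR and 0 had an unadjusted p under 0.05, with log2 fold changes from -0.31 to 0.26. In the gut 6 of 20 junction genes and 4 of 10 *Epcam* partners were called higher and 0 lower. Of the regulators only *Grhl3* was called lower there. Over all genes of the gut 20.4% were called and 9.99% called higher. These lists were chosen with results of these data known.

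Markers of other cells also moved with genotype in the surface ectoderm, where 14.0% of all genes were called and 8.17% called lower. The visceral endoderm list summed to 5.79 and 5.51 CPM in WT and 14.8 and 13.8 CPM in null, with 4 of 5 tested genes called higher. The neural crest list summed to 26.4 and 20.4 CPM in WT and 41.4 and 37.1 CPM in null, with 1 of 3 tested genes, *Sox9*, called higher. Of 5 haemoglobin genes tested, 5 were called lower, and their sum was high in WT replicate 1 alone. The part of these in the claudin values was not tested.

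**Figure D5:**
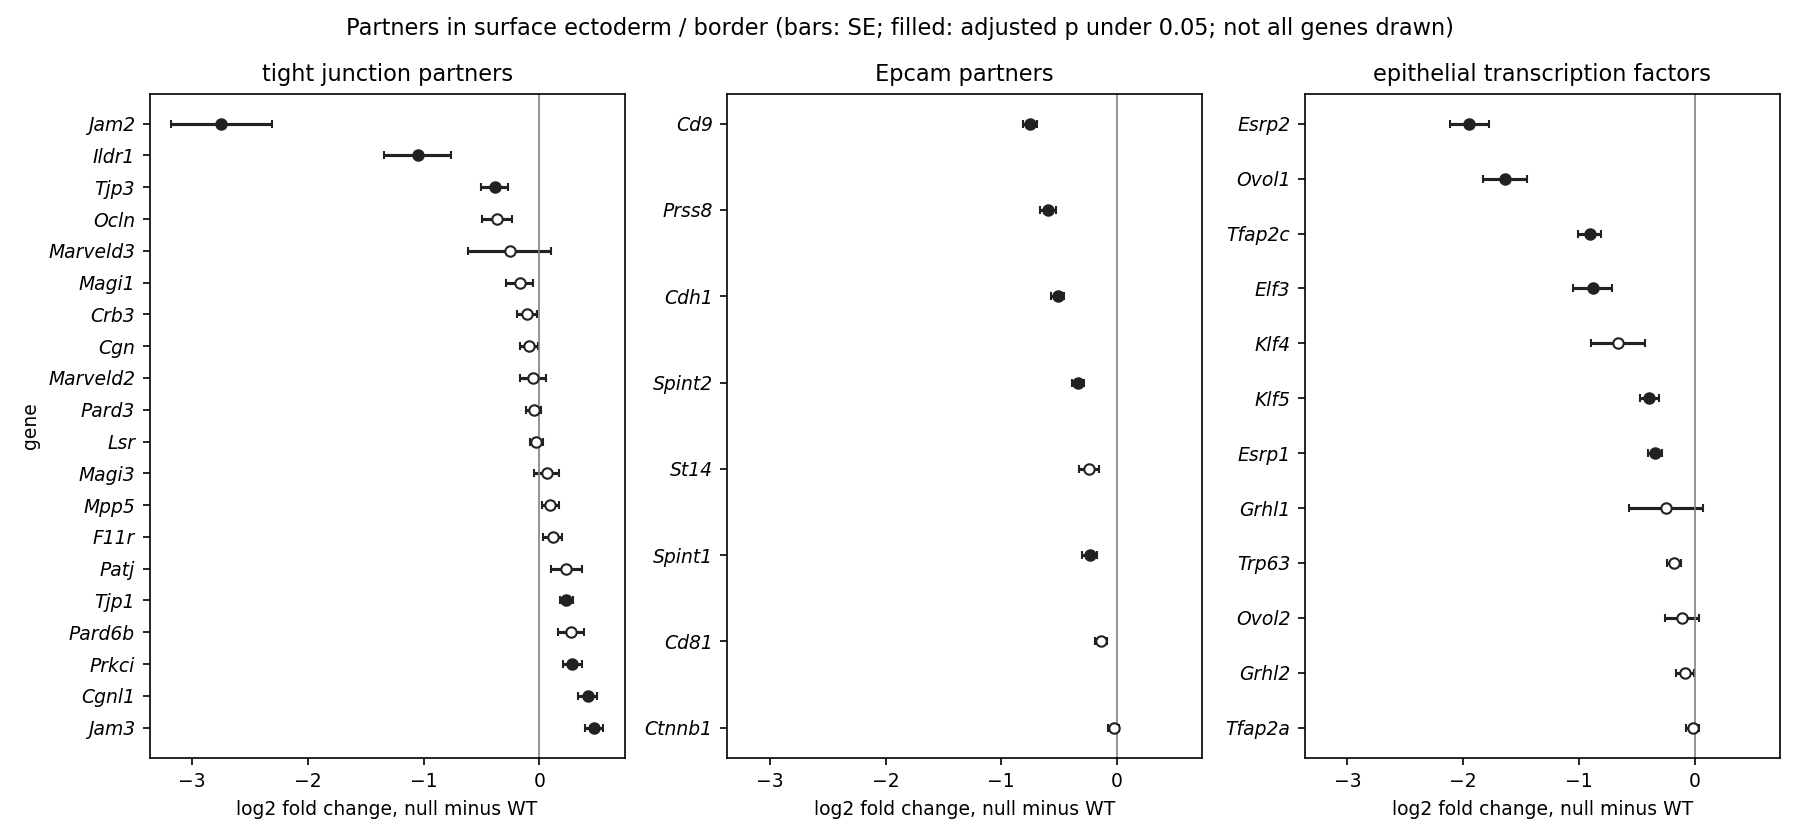
Log2 fold change, null minus WT (horizontal axis, bars for the SE), of genes from the lists of tight junction partners, *Epcam* partners and epithelial regulators in the surface ectoderm, with filled markers where the edgeR adjusted p is under 0.05. The junction genes fall on both sides of 0, the called genes of the other 2 lists all lie left of it, and *Grhl3* (-6.46) is not drawn.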

How the data were processed

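Caudal parts of embryos were dissociated, and 10x Genomics 3′ libraries were sequenced, 2 per pool of WT (5 embryos) or *Grhl3*-null (3 embryos) cells. The deposited matrices hold UMI counts per gene and cell, which the authors made with Cell Ranger on mm10 (named in the submitters' processing notes). The strand setting is not given in the sources used here. The 4 libraries held 209833527 to 226723903 UMIs after filtering. Libraries of 1 pool differed by more than counting error in every class tested (chi-square per degree of freedom 1.42 to 4.26).

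Cells under 3000 genes or 7500 UMIs, or with over 7% mitochondrial UMIs, were removed. Seurat 5.3.0 with sctransform 0.4.2 (R 4.3.3) clustered them on 3000 variable features without the 8 genes, 30 components, 20 neighbours and resolution 0.4. A cluster was named from at least 3 markers of a list among its top 30 genes, and more than 1.5 times as many as of the next list. Scrublet in Scanpy 1.11.5 marked 0% to 0.0627% of cells as doublets, which is too few to have worked, so cells were kept, and an alternative removed the 5% with the highest scores. UMIs were summed per class and library for classes with at least 20 cells in every library. Sums were tested across all genes with edgeR 4.0.16 (quasi-likelihood, TMM, Benjamini-Hochberg, threshold 0.05), with a library block where 2 classes were compared. edgeR was tested on simulated data first. Alternatives were DESeq2 1.42.0, no filter on low counts, a replicate block, other clusterings, filters and subsets of cells, and leaving out each library.

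Named genes were the 8 genes in every named class, other claudins at 5 CPM or more or called, fixed lists of partners, regulators and markers, and the 3 genes with the WT profile most like each (mean of at least 10 CPM). The members and lists were chosen with earlier results of these data known. Calls of other claudins under 5 CPM were named after their values were seen. Protein sequences were not used here, and 2 genes of the lists are counted but not reported singly here.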

Additional observations from a re-analysis of the deposited data

Results flagged for a closer look

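The genotype effect differed between tissues for 5 genes when the surface ectoderm was set against the gut, each by a test of the difference itself in edgeR. The differences of log2 fold change (null minus WT in the surface ectoderm, minus that in the gut) were -1.62 for *Cldn3*, -1.29 for *Cldn4*, -0.67 for *Cldn7*, -0.33 for *Epcam* and -0.25 for *Cldn6*. For *Cldn6* neither part was large, since it was -0.09 in the surface ectoderm and 0.16 in the gut. Set against the neuroepithelium, the difference was -1.59 for *Cldn3*, -2.33 for *Cldn7*, -1.45 for *Cldn6* and -1.17 for *Epcam*. In the neuroepithelium these genes stood at 0.359 to 7.67 CPM, so the second set rests on low counts there. The *Cldn3* effect in that class, not called in the main test, moved with the processing. It was called higher with log-normalised clustering (1.11) and among female cells (1.52), and called lower with classes from marker scores (-3.22). The difference between classes was not tested with classes from marker scores. Both sets share the surface ectoderm values.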

How the results depend on the processing

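In the surface ectoderm *Cldn3* and *Cldn4* were called lower in all 17 alternatives, from -1.79 to -1.04 and from -1.81 to -0.81, and *Cldn7* and *Epcam* in 16 of 17 each. *Cldn6* ran from -0.27 to 0.19 there and was called lower in 3, and *Cldn12* was called by edgeR or DESeq2 in 0. *Cldn7* and *Epcam* were not called among cells without a *Tfap2c* UMI. Those cells were shallower, and the part of depth in this was not tested. Over all classes, 477 of 608 values kept their direction and their side of the threshold under the alternatives, and 191 of 243 when 1 library was left out. Another 38 and 25 were not called either way and changed sign, among them in the surface ectoderm *Cldn6* (0.19 among cells without a *Tfap2c* UMI) and *Cldn12* (-0.0070 among female cells, -0.016 without *Grhl3*-null replicate 1).

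Where counts of called genes moved, they did so as follows, and the cause was not tested. Leaving out 1 library gave 0 to 3 genes in the endothelium, 0 to 2 in the gut, 0 to 1 in the intermediate mesoderm, 0 to 2 in the notochord and 4 to 8 calls in the remaining classes (7 with all libraries). DESeq2 called 1 gene in the gut, 2 in the neuroepithelium, 0 in the neuromesodermal progenitors, 0 in the notochord and 0 in the remaining classes. With no filter on low counts, 2 were called in the intermediate mesoderm and 2 in the notochord. Removing doublets ended the calls of *Cldn7* and *Epcam* in the paraxial mesoderm and gave 1 in the intermediate mesoderm and 0 in the notochord, and a mitochondrial limit of 5% gave 1 in the gut and 1 in the intermediate mesoderm. Resolution 0.8 gave 2 in the intermediate mesoderm, 2 in the neuroepithelium, 5 in the neuromesodermal progenitors and 2 in the remaining classes. Keeping the 8 genes in the clustering gave 5 in the neuromesodermal progenitors, and log-normalised clustering 2 in the remaining classes. Classes from marker scores gave 0 in the gut, 2 in the neuroepithelium, 2 in the notochord and 4 in the remaining classes. Male cells alone gave 0 in the gut, the neuroepithelium and the remaining classes, and female cells alone 1 in the endothelium (*Cldn5*), 1 in the gut, 2 in the intermediate mesoderm and 3 in the remaining classes. In the intermediate mesoderm these calls were of *Cldn12*, higher in null, and *Epcam*, lower in null. *Epcam* was called there with no filter on low counts (-1.17), with the replicate block (-1.18), without doublets (-1.35), at resolution 0.8 (-1.37) and among female cells (-6.77).

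Among values called with or without the change, signs turned for *Cldn7* in the gut (-0.16) and *Cldn12* in mesenchyme 2 (-0.10) among male cells, and for *Epcam* in the neuromesodermal progenitors (0.56 among male cells, 0.16 at resolution 0.8). Among female cells they turned for *Cldn6* (0.25) and *Epcam* (0.74) in the notochord and *Epcam* in the paraxial mesoderm (0.16, and 0.0112 without doublets). With classes from marker scores they turned for *Cldn6* in mesenchyme 2 (-1.33) and for *Cldn3* (-3.22) and *Epcam* (-0.18) in the neuroepithelium.

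Samples with the same replicate number did not deviate together (correlations of -0.17 to 0.10 per class), so the numbers are not shown to pair them. The replicate block took the intermediate mesoderm from 0 to 2 genes and moved no other count of called genes by over 1.5 times. In the erythroid class edgeR called 38 genes of all, 24 with the block and 32 with the numbers crossed, a setting chosen after seeing the data. Over all genes, edgeR and DESeq2 called 1748 and 526 in the surface ectoderm, 2674 and 875 in the gut, 3032 and 1221 in the neuroepithelium, 2571 and 782 in the neuromesodermal progenitors, 385 and 55 in the notochord, 369 and 107 in the intermediate mesoderm, 265 and 74 in mesenchyme 1, 2512 and 868 in mesenchyme 2, 2971 and 1038 in the paraxial mesoderm, 1527 and 410 in the somitic mesoderm and 38 and 21 in the erythroid class. With 2 libraries per pool, depth limits what can be seen of *Cldn5* and *Cldn10* outside their main classes.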

Other observations

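The primordial germ cell class was too small to be tested, with 16 and 5 WT cells and 13 and 26 null cells. *Cldn7* stood at 122 and 132 CPM in its null libraries, beside 118 ± 3.66 CPM in WT, and *Cldn5* at 57.6 and 35.9 CPM beside 18.8 and 18.5 CPM. *Rab25*, the third gene by likeness to both *Cldn3* and *Cldn7*, measured 82.1 and 83.4 CPM in the WT and 37.9 and 45.1 CPM in the null surface ectoderm (-1.04, called by edgeR), while *Kdf1* and *Cgn*, the closest to *Cldn3*, were not called (0.33 and -0.09). Of the genes closest to *Cldn4* and *Cldn7*, *Trim29* (-1.03), *Tnk1* (-0.76), *Prss8* (-0.60) and *Ap1m2* (-0.36) were called lower there, and *Grhl2* was not called. Of those closest to *Cldn6* and *Epcam*, *Cdh1* was called lower (-0.51), and *Ripk4*, *Chmp4c*, *Cdcp1* and *St14* were not called. *Cldn9* was called lower in the neuroepithelium (-1.15) and mesenchyme 2 (-1.52) and higher in the paraxial (0.92) and somitic mesoderm (0.38). *Cldn11* was called higher in mesenchyme 2 (1.17) and the gut (0.55), and *Cldn2* in mesenchyme 2 (1.22).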
